A study of Mus musculus with 8 samples.

Results

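Areg, which encodes amphiregulin, and 9 other genes of repair and growth factor signalling were followed in regulatory T cells (Tregs) from aged and young mice. The genes were chosen by name: Areg, Hbegf, Penk, Vegfa, Vegfb, Pdgfb, Osm, Igf1, Hgf and Egfr. All 10 were found among the 38406 gene symbols of the count table, and all 10 were among the 14772 genes that passed the filter on low counts. Tregs are CD4 T cells that depend on the transcription factor Foxp3 and restrain immune responses. The series compared Tregs of mice older than 6 months with Tregs of 2-month-old mice, in muscle and in spleen. The aged muscle, young muscle, aged spleen and young spleen groups had 2 libraries each, 8 in all, and RNA was read as sequencing counts per gene. Every mouse was a male C57BL/6, and no transgene or deletion is named in the labels. All groups, spleens included, came from animals given cardiotoxin, a snake venom toxin that kills muscle fibres, at 0.9 µg per muscle in the tibialis anterior, quadriceps and gastrocnemius. Tissues were taken 4 days later, so there was no uninjured group. From each tissue 1500 Tregs were sorted in 2 rounds, and their RNA was amplified by in vitro transcription for 9 hours before 15 cycles of PCR. The labels do not say which surface markers or reporter defined a Treg. The 2 libraries of a group are called biological duplicates, and single mice or pooled mice are not distinguished. A p-value therefore reflects the variation between such duplicates, which may be technical in part.

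Amphiregulin and HB-EGF (Hbegf) are made as membrane proteins and released by the protease ADAM17. Both bind the EGF receptor, encoded by Egfr. In mouse muscle, amphiregulin made by Tregs is known to act on satellite cells, the stem cells that rebuild fibres after injury. Penk encodes proenkephalin, the precursor of the enkephalin opioid peptides, and is expressed by some tissue Tregs. Vegfa and Vegfb encode ligands of the VEGF receptors, of which Vegfa is the main driver of vessel growth. Pdgfb encodes the B chain of platelet-derived growth factor, a signal to pericytes and fibroblasts. Oncostatin M (Osm) is a cytokine of the interleukin-6 family. Insulin-like growth factor 1 (Igf1) drives muscle fibre growth, and hepatocyte growth factor (Hgf), the ligand of the receptor Met, activates satellite cells.

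Areg lies on the forward strand of chromosome 5, from 91139599 to 91148432 on GRCm38. Its promoter is shown because Areg was the member that differed between groups in every direct comparison. The sequence is RefSeq's on GRCm38.p6, forward strand, chr5:91139349-91139648, and covers 250 bases before the annotated start and 50 after it. Capitals mark the full cyclic AMP response element TGACGTCA, 61 to 54 bases before the start, and the TATA box TATAAAA, 31 to 25 bases before it.
Areg promoter: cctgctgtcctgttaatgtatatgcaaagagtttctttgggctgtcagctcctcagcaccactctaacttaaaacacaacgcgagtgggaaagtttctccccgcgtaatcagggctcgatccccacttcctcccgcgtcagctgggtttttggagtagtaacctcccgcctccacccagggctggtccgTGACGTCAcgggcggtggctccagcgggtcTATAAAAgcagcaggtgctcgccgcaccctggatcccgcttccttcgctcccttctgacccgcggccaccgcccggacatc
On both strands, TGACGTCA was found in 588 of 32851 mouse promoters of this length (1.79%) and TATAAAA in 1801 (5.48%). The AP-1 motif TGANTCA, found in 2565 promoters (7.81%), was not in the Areg window. The table held 8 promoters of 6 members. Of these, TGACGTCA and TATAAAA were in the Areg promoter alone, and TGANTCA was in 1 promoter of Igf1. A match describes the letters and not binding.

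The libraries held 1969982 to 4008622 counts. All 8 defining T cell and Treg markers were detected in every library. Their summed level was 3807 to 4596 CPM (counts per 1000000 counts of the library, its total adjusted by TMM normalization factors) in aged muscle, 5005 to 5034 CPM in young muscle, 4301 to 4342 CPM in aged spleen and 3684 to 3704 CPM in young spleen. Foxp3 had 33 to 108 counts per library. Young muscle replicate 1 stood apart. Its 17 myeloid markers, without Ccr2, which Tregs also express, summed to 777 CPM, against 92.2 to 213 CPM in the other 7 libraries. Its 8 fibroblast markers, without Ly6a and Thy1, summed to 513 CPM. Aged muscle replicate 2 was next for fibroblast markers with 122 CPM, and the other 6 libraries had 8.14 to 42.5 CPM. The macrophage gene Lyz2 had 116 CPM and the collagen gene Col1a1 150 CPM in young muscle replicate 1. In aged muscle replicate 1, 8 of the 17 myeloid markers were at 0, namely Fcer1g, C1qa, C1qb, C1qc, S100a8, S100a9, Ly6g and Fcgr3. Without Pecam1, 9 endothelial and pericyte markers summed to 55.1 and 108 CPM in aged muscle, 62.4 and 69.4 CPM in young muscle, 24.3 and 24.4 CPM in aged spleen and 19.2 and 8.91 CPM in young spleen. The summed level of the 6 B cell markers was lower in muscle, at 283 to 336 CPM over both ages, than in spleen, at 486 to 629 CPM. The single markers did not all go that way. Ighm was 1.67-fold and 2.31-fold lower in muscle in young and aged mice (edgeR adjusted p = 0.00252 and 6.51e-05). Pax5 was 1.56-fold and 1.77-fold higher (edgeR adjusted p = 0.631 and 0.473). The 12 satellite cell and muscle fibre markers summed to 48.4 to 56.2 CPM in aged muscle and 15.5 to 49.95 CPM elsewhere, and the 8 platelet and erythroid markers to 11.6 to 161 CPM over all libraries. The 213 genes that span at least 500 kb took 3.8% of the counts in aged muscle replicate 2 and 1.48% to 2.37% in the other 7 libraries. In bulk RNA from sorted cells, fewer cells of a type and less RNA per cell cannot be told apart.

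**Figure D1:**
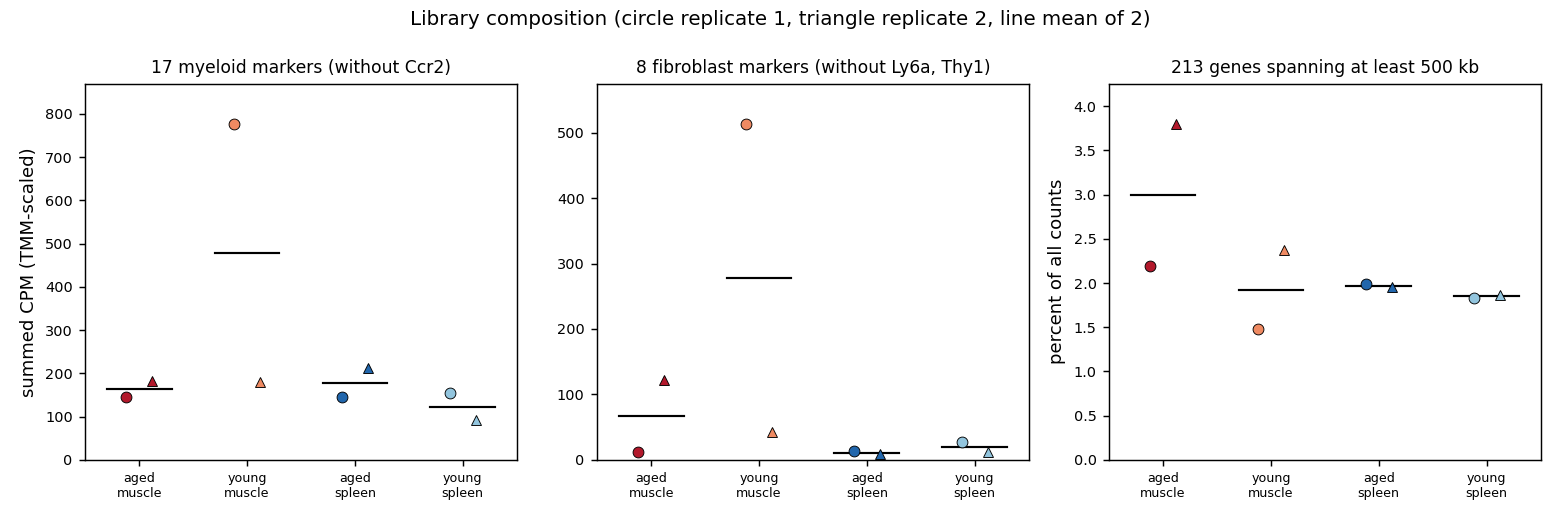
Summed level of myeloid and fibroblast marker genes in CPM, and the percent of counts in the 213 genes spanning at least 500 kb, by group. Points are libraries and lines are means of 2. Young muscle replicate 1 is the highest for both marker sums, at 777 and 513 CPM, and aged muscle replicate 2 is the highest for long genes, at 3.8%.

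Areg, the EGF receptor ligand, was the member with the clearest pattern. It was higher in aged than in young Tregs in both tissues, and higher in muscle than in spleen at both ages. Its level was 398 and 320 CPM in aged muscle (1069 and 756 counts) and 197 and 118 CPM in young muscle (489 and 236 counts). In aged spleen it was 94.4 and 72.9 CPM (385 and 215 counts), and in young spleen 18.2 and 20.5 CPM (39 and 53 counts). No library of one group overlapped any library of another, so the order of the groups was aged muscle, young muscle, aged spleen, young spleen. Young muscle and aged spleen, neighbours in that order, were not compared by a test, since they differ in both age and tissue. Group means were 359 ± 55.5 CPM in aged muscle, 157 ± 55.8 CPM in young muscle, 83.7 ± 15.2 CPM in aged spleen and 19.4 ± 1.63 CPM in young spleen (SD, n = 2 each).

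Between ages, Areg rose 2.28-fold in aged muscle Tregs relative to young ones, a log2 fold change of 1.19 ± 0.227 (SE, 95% interval 0.698 to 1.67, edgeR adjusted p = 0.0144). In spleen it rose 4.31-fold with age, a log2 fold change of 2.11 ± 0.271 (1.53 to 2.69, edgeR adjusted p = 0.000402). The 2 age effects differed by -0.92 ± 0.352 on the log2 scale, muscle minus spleen. That difference had an unadjusted p of 0.0203 and an edgeR adjusted p of 0.246, so it did not pass the threshold of 0.05. Its interval ran from -1.68 to -0.17. The age effect in muscle did not pass without aged muscle replicate 1, at 1.03 with an edgeR adjusted p of 0.0598. It also did not pass in an edgeR fit of the 2 muscle groups alone, at 1.19 with an adjusted p of 0.212. The age effect in spleen passed in all 14 alternative fits, between 1.91 and 2.28.

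Between tissues, Areg rose 8.10-fold in young muscle relative to young spleen, a log2 fold change of 3.02 ± 0.271 (95% interval 2.44 to 3.60, edgeR adjusted p = 3.04e-06). In aged mice it was 4.28-fold higher in muscle than in spleen, 2.10 ± 0.234 on the log2 scale (1.60 to 2.60, edgeR adjusted p = 3.89e-05). Both tissue differences passed in all 14 alternatives, between 2.60 and 3.34 in young mice and between 1.93 and 2.30 in aged mice. Young muscle replicate 1, the library high in myeloid and fibroblast markers, had more Areg than young muscle replicate 2. Without it, the tissue difference in young mice was 2.60 and the age effect in muscle 1.61, with an edgeR adjusted p of 0.0014 for the age effect.

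**Figure D2:**
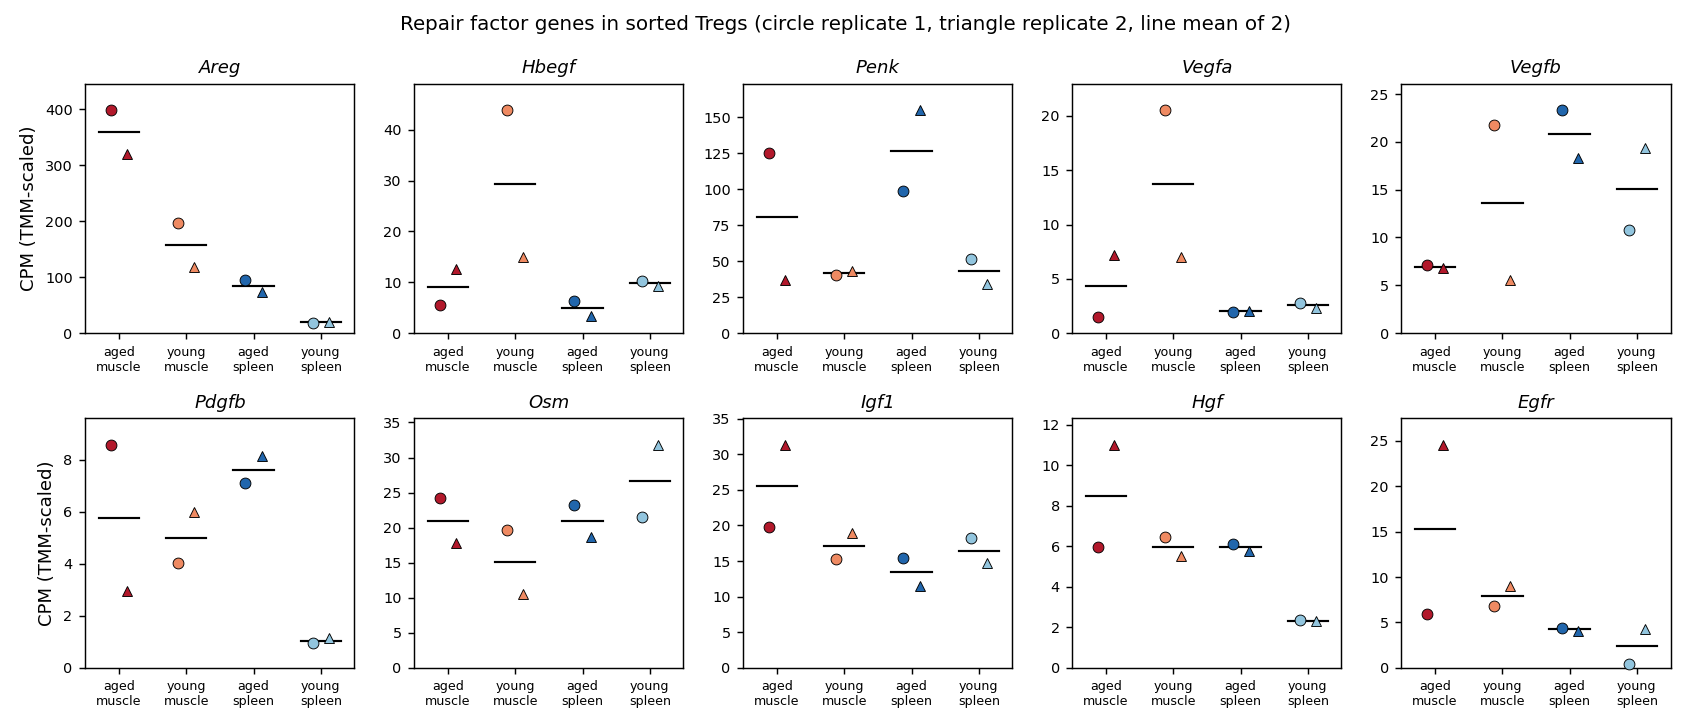
Level of each of the 10 genes in CPM in every library, by group. Circles are replicate 1, triangles replicate 2 and lines the mean of 2. The Areg groups do not overlap, from 398 and 320 CPM in aged muscle down to 18.2 and 20.5 CPM in young spleen, while most other genes show overlapping groups or 1 high library.

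Hbegf, a second ligand of the EGF receptor, lies on the reverse strand of chromosome 18, from 36504927 to 36515805. It had 5.59 and 12.7 CPM in aged muscle, 43.9 and 15.0 CPM in young muscle, 6.38 and 3.39 CPM in aged spleen and 10.3 and 9.30 CPM in young spleen. Young muscle replicate 1 was the high library, with 109 counts, and both aged groups lay below their young counterparts with no overlap. The log2 fold change with age was -1.70 ± 0.603 in muscle (edgeR adjusted p = 0.182) and -0.97 ± 0.63 in spleen (edgeR adjusted p = 0.48). Relative to spleen, Hbegf in muscle differed by 1.59 ± 0.601 in young mice (edgeR adjusted p = 0.07) and 0.87 ± 0.63 in aged mice (edgeR adjusted p = 0.346). None of these passed. Without young muscle replicate 1, the age difference in muscle was -0.72 and the young tissue difference 0.61. Without young muscle replicate 2, which leaves the high library alone, both passed, at -2.27 and 2.16 (edgeR adjusted p = 0.0231 and 0.0132), and the tissue difference also passed with no filter (1.58, 0.0334). That library also held the highest myeloid and fibroblast sums, and their part in its Hbegf level was not tested.

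Egfr, the receptor of both ligands (chromosome 11, 16752203 to 16918158, forward strand), had low counts. It had 5.96 and 24.5 CPM in aged muscle (16 and 58 counts), 6.84 and 8.99 CPM in young muscle (17 and 18 counts), 4.41 and 4.07 CPM in aged spleen (18 and 12 counts) and 0.467 and 4.26 CPM in young spleen (1 and 11 counts). Both muscle groups lay above the spleen group of the same age. The single count in young spleen replicate 1 has an exact Poisson 95% interval of 0.0253 to 5.57 counts. The tissue difference was 1.83 ± 0.838 in aged mice (95% interval 0.04 to 3.61, edgeR adjusted p = 0.137) and 1.68 ± 0.911 in young mice (edgeR adjusted p = 0.197), and neither passed. Without aged muscle replicate 2 the aged difference was 0.48. The highest value was in that library, which had the highest share of long genes and 122 CPM of fibroblast markers. Fibroblasts are known to express Egfr, and the part of those markers was not tested. An annotated antisense gene, Egfros, overlaps Egfr, and without a stated strand setting their reads cannot be told apart.

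Penk, the enkephalin precursor gene (chromosome 4, 4133531 to 4138819, reverse strand), differed in pattern from Areg. It had 125 and 36.8 CPM in aged muscle, 40.6 and 43.0 CPM in young muscle, 98.8 and 155 CPM in aged spleen and 51.4 and 34.1 CPM in young spleen. The aged spleen libraries were both above the young spleen libraries, and in aged muscle 1 library was high and the other was below both young muscle libraries. The log2 fold change with age was 1.57 ± 0.538 in spleen, or 2.97-fold, with an unadjusted p of 0.0216 and an edgeR adjusted p of 0.197. It did not pass in the fit of all libraries. It did pass with DESeq2 (adjusted p = 0.00717), without the filter on low counts (edgeR adjusted p = 0.000116) and in an edgeR fit of the 2 spleen groups alone (adjusted p = 3.34e-06). It passed as well without either aged muscle library, with edgeR adjusted p values of 0.00406 and 0.00209. In muscle the age difference was 0.96 ± 0.545 (edgeR adjusted p = 0.455), and it was -0.18 without aged muscle replicate 1 and 1.58 without aged muscle replicate 2 (edgeR adjusted p = 0.019). Muscle and spleen differed by -0.64 ± 0.513 in aged mice (edgeR adjusted p = 0.418) and by -0.03 ± 0.562 in young mice (edgeR adjusted p = 0.979), and the sign of the young value changed with the scaling of libraries. The aged tissue difference passed without aged muscle replicate 1, at -1.76 (edgeR adjusted p = 0.00504). The gene A830012C17Rik overlaps Penk on the other strand.

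The vascular factors gave no call. Vegfa (chromosome 17, 46016993 to 46032369, reverse strand) had 1.49 and 7.19 CPM in aged muscle, 20.5 and 6.99 CPM in young muscle, 1.96 and 2.04 CPM in aged spleen and 2.80 and 2.33 CPM in young spleen. Young muscle replicate 1 was again the high library, and 5 of the 8 libraries had fewer than 10 counts. The young muscle libraries were both above young spleen, a log2 fold change of 2.41 ± 0.921 (95% interval 0.45 to 4.38, edgeR adjusted p = 0.0725), which fell short of the threshold. Without young muscle replicate 1 it was 1.44, and it passed without young muscle replicate 2 (2.98, edgeR adjusted p = 0.0369) and without aged muscle replicate 1 (2.41, 0.0495). With age, aged muscle differed from young muscle by -1.68 ± 0.877 (edgeR adjusted p = 0.38), with -0.70 without young muscle replicate 1 and -3.18 without aged muscle replicate 2, and aged spleen from young spleen by -0.35 ± 0.96 (edgeR adjusted p = 0.906). Myeloid cells and fibroblasts are known sources of Vegfa, and the part of the markers in that library was not tested.

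Vegfb (chromosome 19, 6982473 to 6987651, reverse strand) had 7.08 and 6.77 CPM in aged muscle, 21.7 and 5.5 CPM in young muscle, 23.3 and 18.3 CPM in aged spleen and 10.8 and 19.4 CPM in young spleen. It was the one member besides Osm that was lower in muscle than in spleen in a comparison with no overlap, here in aged mice. That log2 fold change was -1.58 ± 0.59, or 3.0-fold lower in muscle, with an unadjusted p of 0.0171 and an edgeR adjusted p of 0.0728. It passed in 4 alternatives, with no filter, with the 2 aged groups alone and without either young muscle library, with values of -1.74 to -1.40 over all 14. The age difference in muscle was -0.99 ± 0.602 (edgeR adjusted p = 0.457) and turned to 0.33 without young muscle replicate 1.

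Pdgfb (chromosome 15, 79995874 to 80014977, reverse strand) was near the detection floor in young spleen. It had 8.57 and 2.96 CPM in aged muscle (23 and 7 counts), 4.02 and 5.99 CPM in young muscle (10 and 12 counts), 7.11 and 8.14 CPM in aged spleen (29 and 24 counts) and 0.935 and 1.16 CPM in young spleen (2 and 3 counts). Young spleen lay below every other library. With exact Poisson 95% intervals, its counts of 2 and 3 allow 0.242 to 7.22 and 0.619 to 8.77 counts. The log2 fold change was 2.80 ± 0.95 with age in spleen (95% interval 0.77 to 4.82, unadjusted p = 0.01, edgeR adjusted p = 0.127) and 2.19 ± 0.969 between young muscle and young spleen (edgeR adjusted p = 0.117). Neither passed. The age difference in spleen passed in 1 of 14 alternatives, the edgeR fit of the 2 spleen groups alone (adjusted p = 0.0244). The transcripts Mir7213 and Gm41361 overlap Pdgfb, and reads could not be assigned between overlapping genes with certainty.

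Osm, the interleukin-6 family cytokine (chromosome 11, 4236420 to 4241026, forward strand), varied little. It had 24.2 and 17.8 CPM in aged muscle, 19.7 and 10.5 CPM in young muscle, 23.3 and 18.7 CPM in aged spleen and 21.5 and 31.8 CPM in young spleen. Both young muscle libraries were below both young spleen libraries, and all other pairs of groups compared overlapped. The young tissue difference of -0.81 ± 0.415 did not pass (95% interval -1.69 to 0.08, edgeR adjusted p = 0.173). In aged mice the interval was -0.85 to 0.85.

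Igf1 (chromosome 10, 87858265 to 87937042, forward strand) had 19.7 and 31.3 CPM in aged muscle, 15.3 and 19 CPM in young muscle, 15.4 and 11.5 CPM in aged spleen and 18.2 and 14.7 CPM in young spleen. Aged muscle was the highest group, with both libraries above both young muscle and both aged spleen libraries. The tissue difference in aged mice was 0.91 ± 0.409 (95% interval 0.04 to 1.78, unadjusted p = 0.0423, edgeR adjusted p = 0.13), and the age difference in muscle was 0.57 ± 0.413 (edgeR adjusted p = 0.541). Neither passed. Without aged muscle replicate 2 they were 0.54 and 0.21. The antisense gene Igf1os overlaps it.

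Hgf (chromosome 5, 16553495 to 16620152, forward strand) had 5.96 and 11 CPM in aged muscle, 6.44 and 5.5 CPM in young muscle, 6.13 and 5.77 CPM in aged spleen and 2.34 and 2.33 CPM in young spleen. The lowest libraries were those of young spleen, with 5 and 6 counts, and the other 6 libraries had 11 to 26 counts. The difference of aged from young spleen was 1.34 ± 0.786 (edgeR adjusted p = 0.425) and that of young muscle from young spleen 1.34 ± 0.799 (edgeR adjusted p = 0.238), and neither passed. These comparisons share the young spleen libraries, as do those of Pdgfb.

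Over the 10 genes, Areg was the one called in each of the 4 direct comparisons, and no member was called in the difference of age effects. For age in muscle, 1 of 10 members was called higher and 0 lower, where 1.14% of all tested genes were called higher and 0.88% lower. For age in spleen the counts were 1 higher and 0 lower, beside 2.08% higher and 2.17% lower among all tested genes. For the difference of age effects 0 members were called, beside 1.35% higher and 1.17% lower, and edgeR gave 1 member, Areg, an unadjusted p under 0.05. DESeq2 also called 0 members there. For tissue in young mice 1 member was called higher, beside 11.4% higher and 10.9% lower, which puts the members' count near the background. For tissue in aged mice 1 member was called higher, beside 9.57% higher and 9.27% lower, again near the background. The members' median log2 fold change was 0.48 for age in muscle, 0.62 for age in spleen, 1.47 for tissue in young mice and 0.69 for tissue in aged mice, beside 0.03, 0.05, 0.07 and 0.03 for all tested genes.

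The libraries of aged and young muscle did not overlap for 3 members, higher for Areg and Igf1 and lower for Hbegf, which is a share below the 41.5% of all tested genes. For age in spleen 6 members did not overlap, higher for Areg, Penk, Pdgfb and Hgf and lower for Hbegf and Vegfa, beside 52.7% of all tested genes. For tissue in young mice it was 7 members, 6 higher in muscle and Osm lower, beside 61.7%. For tissue in aged mice it was 4 members, Areg, Igf1 and Egfr higher in muscle and Vegfb lower, beside 65.4%. With 2 libraries a group such separation was therefore common among all genes.

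Depth and spread differed between the members. Mean counts over the 8 libraries were 405 for Areg and 208 for Penk, and 13.8 to 56.9 for the other 8. None fell under the low-count limit of a mean of 10 counts, but Vegfa had 5 libraries under 10 counts, Pdgfb 3, Hgf 2 and Egfr 1. The biological coefficient of variation fitted by edgeR was 0.169 for Areg and 0.279 to 0.552 for the others.

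**Figure D3:**
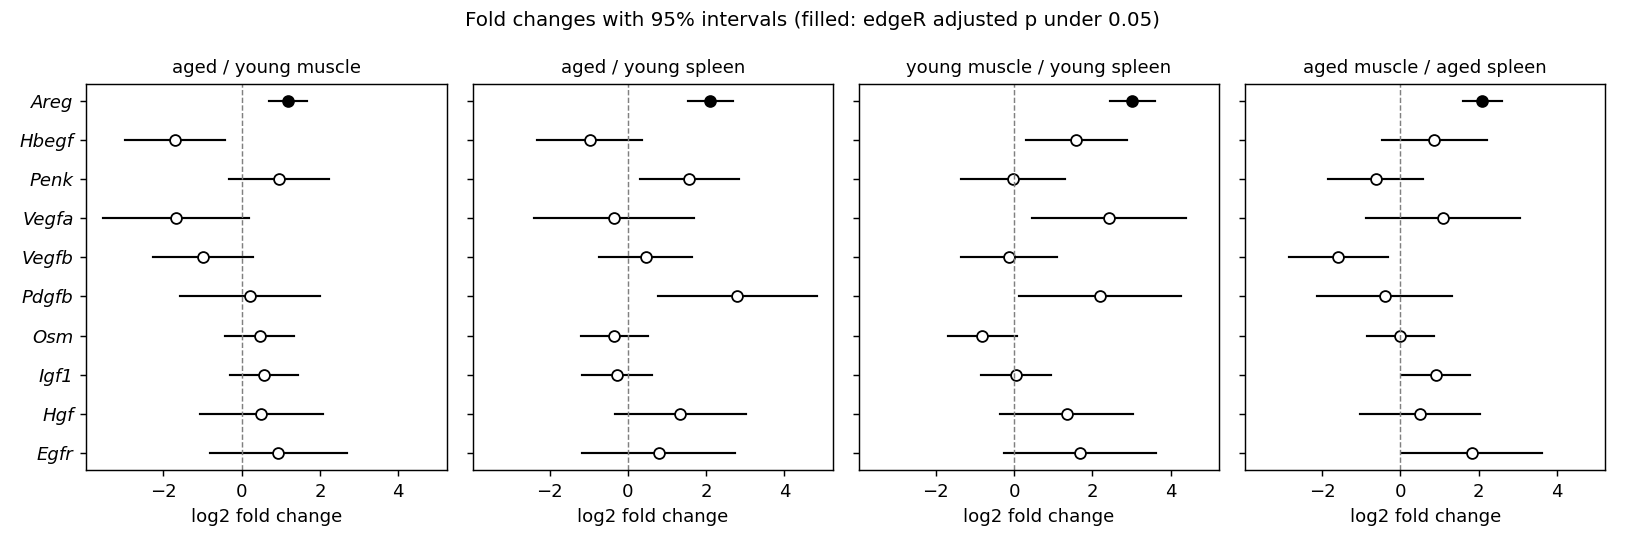
Log2 fold change of each of the 10 genes in the 4 direct comparisons, with 95% intervals. Filled points passed an edgeR adjusted p of 0.05, which Areg alone did, from 1.19 for age in muscle to 3.02 for tissue in young mice.

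The wider EGF family was then examined, with the other ligands and the 4 receptors. Of 15 genes, 12 passed the filter on low counts, and Ereg, Epgn and Erbb2 did not. In young mice 7 of the 12 were higher in muscle than in spleen and 0 lower, beside 11.4% higher and 10.9% lower among all tested genes. The count was 2 without either young spleen library and 3 without young muscle replicate 2. They were Areg, the ligands Tgfa (2.99, edgeR adjusted p = 0.0314), Nrg1 (3.33, 0.0168), Nrg3 (2.29, 0.0412) and Nrg4 (2.18, 0.0312), and the neuregulin receptors Erbb3 (2.15, 0.0081) and Erbb4 (1.94, 0.0064), with log2 fold changes and adjusted p in parentheses. In aged mice 4 were higher and 0 lower, beside 9.57% and 9.27%, namely Areg, Nrg1 (2.31, edgeR adjusted p = 0.0366), Nrg3 (2.41, 0.026) and Erbb4 (1.58, 0.0133). The list's median log2 fold change was 2.06 in young and 1.39 in aged mice, beside 0.07 and 0.03 over all tested genes.

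Erbb3, a receptor for neuregulins, had 24.1 and 36.0 CPM in young muscle against 8.88 and 4.65 CPM in young spleen. Nrg1 had 6.04 and 12 CPM in young muscle against 0.935 and 0.775 CPM in young spleen, where it had 2 counts in each library. Several of these calls rested on few counts, and other than those of Areg each was lost in 2 to 6 of the 14 alternative fits. In aged mice the list's calls came to 1 without aged spleen replicate 2 and to 1 without aged muscle replicate 2. Aged muscle replicate 2 held the largest share of long genes at 3.8%, and Nrg1, Nrg3 and Erbb4 span 1070, 1100 and 1080 kb of the genome. In young muscle the share was 1.48% in replicate 1 and 2.37% in replicate 2, against 1.83% and 1.87% in young spleen. Nrg3 had 35.8 and 99.4 CPM in these young muscle libraries, and its young tissue difference was 1.38 without replicate 2. The part of the long-gene share in the levels of Nrg1, Nrg3 and Erbb4 was not tested at either age. With age, Areg was the only gene of the list called, in muscle and in spleen.

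**Figure D4:**
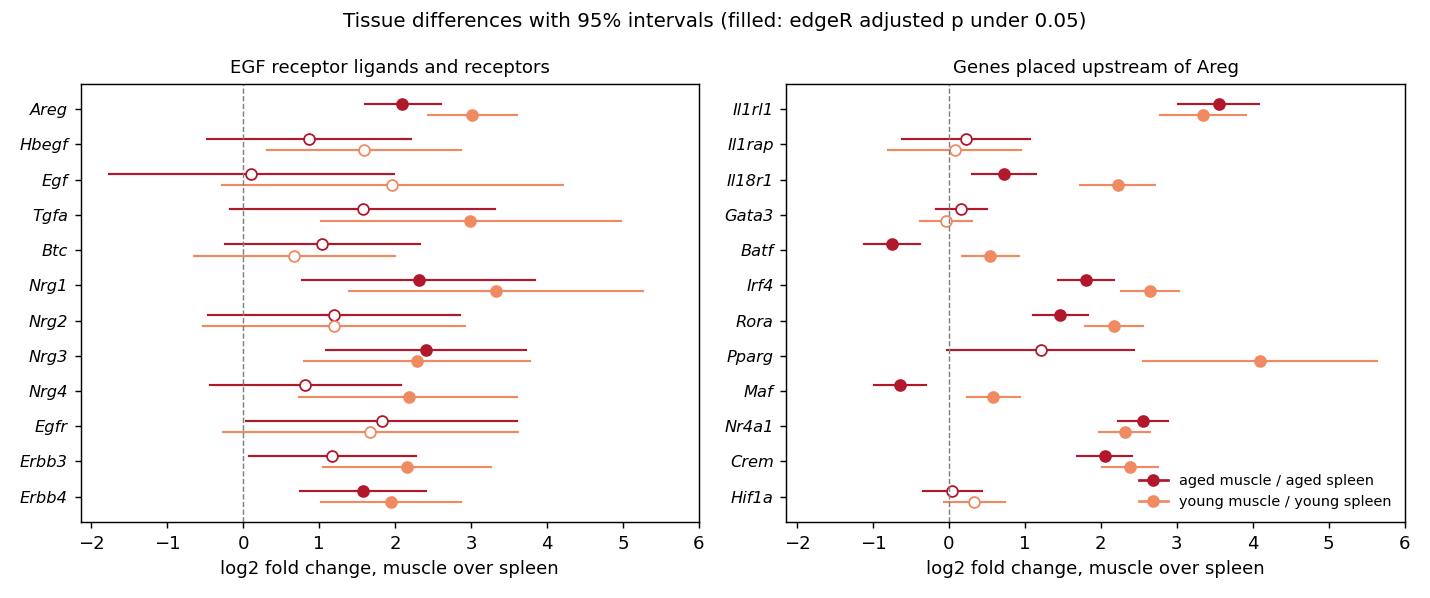
Log2 fold change of muscle over spleen in aged and young mice, with 95% intervals, for the 12 measured EGF family genes and the 12 genes placed upstream of Areg. Filled points passed an edgeR adjusted p of 0.05. In young mice 7 EGF family genes passed and in aged mice 4, and Batf and Maf passed as higher in muscle in young mice and as lower in aged mice, calls that were lost in 3 to 7 of 14 alternatives.

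Of 14 tested genes that release EGF ligands or adjust EGF receptor signalling, 4 were higher in young muscle than in young spleen and 3 lower, beside 11.4% and 10.9% of all tested genes. In aged mice 0 were higher and 4 lower, beside 9.57% and 9.27%, and with library size alone 3 were higher and 3 lower. Without either young spleen library the young counts were 1 higher and 2 lower. In aged mice 2 were lower without any 1 of the 4 spleen or 2 aged muscle libraries. Furin encodes a protease that activates precursors including that of ADAM17. In young mice it was 1.30 ± 0.181 higher in muscle on the log2 scale (edgeR adjusted p = 0.000128). Rhbdf2, which carries ADAM17 to the cell surface, was 1.69 ± 0.453 higher in young muscle than in young spleen (edgeR adjusted p = 0.0155). In aged mice the differences of Furin and Rhbdf2 were 0.49 and 0.91 (edgeR adjusted p = 0.0689 and 0.171), and neither passed. Adam17 itself was not called, at -0.41 in young and -0.22 in aged mice (edgeR adjusted p = 0.253 and 0.539). Adam10, also on this list, was called lower in muscle, at -0.93 in young and -0.78 in aged mice (edgeR adjusted p = 0.0106 and 0.0313). The Adam10 calls held in 11 and 7 of 14 alternatives. Release of the ligands was not measured. Lrig1 and Cbl, which promote loss of the active receptor, were lower in muscle at both ages. Lrig1 had 24.6 and 18.2 CPM in aged muscle against 178 and 138 CPM in aged spleen, a log2 fold change of -2.88 ± 0.221 (edgeR adjusted p = 7.42e-07). In young mice it had 29.0 and 29.5 CPM in muscle against 213 and 224 CPM in spleen (-2.90 ± 0.218, edgeR adjusted p = 3.01e-07). Cbl was lower in muscle by -1.83 in aged mice (edgeR adjusted p = 1.13e-05) and by -1.51 in young mice (edgeR adjusted p = 3.25e-05). The calls of Lrig1, Cbl and Furin between tissues held in all 14 alternatives. With age in muscle 1 gene, Furin, was called, and it was lower, beside 0.88% of all tested genes. It fell by 1.03 on the log2 scale (edgeR adjusted p = 0.0053), with 181 and 162 CPM in aged muscle against 399 and 303 CPM in young muscle. That call was lost without young muscle replicate 1 (-0.82) and in the fit of the 2 muscle groups.

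Of 12 genes placed upstream of Areg in tissue Tregs, 9 were higher in young muscle than in young spleen and 0 lower, beside 11.4% and 10.9% of all tested genes. In aged mice 6 were higher and 2, Batf and Maf, lower, beside 9.57% and 9.27%. The 2 lower calls were lost without either aged spleen library or aged muscle replicate 2, and Batf, at 0.55 in young mice, lost its call there in 7 of 14 alternatives. Il1rl1, which encodes the interleukin-33 receptor ST2, had 231 and 159 CPM in aged muscle against 17.2 and 15.9 CPM in aged spleen, a log2 fold change of 3.55 ± 0.248 (edgeR adjusted p = 3.13e-07). In young mice it had 111 and 136 CPM in muscle against 13.6 and 10.9 CPM in spleen (3.35 ± 0.266, edgeR adjusted p = 4.7e-07). So the tissue difference of Il1rl1 was large at both ages. Its age differences, 0.66 in muscle (edgeR adjusted p = 0.148) and 0.45 in spleen (edgeR adjusted p = 0.471), did not pass.

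Crem and Nr4a1 are linked to cyclic AMP and T cell receptor signals respectively, but neither signal was measured. Crem encodes a protein that binds cyclic AMP response elements. It was higher in muscle by 2.05 ± 0.169 in aged mice (edgeR adjusted p = 1.52e-06) and 2.38 ± 0.173 in young mice (edgeR adjusted p = 2.16e-07). Binding of that protein at the Areg promoter was not tested. Nr4a1, induced by T cell receptor signals, was higher by 2.55 ± 0.157 and 2.31 ± 0.157 (edgeR adjusted p = 8.05e-08 and 1.05e-07). The transcription factors Irf4 and Rora were also higher in muscle at both ages, Irf4 by 1.81 and 2.65 and Rora by 1.46 and 2.17 in aged and young mice. These 5 genes kept their tissue calls in all 14 alternatives.

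With age in spleen, 4 of the 12 rose and 0 fell, beside 2.08% and 2.17% of all tested genes. Il18r1, a receptor chain for interleukin-18, rose most, with 81.2 and 99.4 CPM in aged spleen against 22.0 and 21.7 CPM in young spleen (2.04 ± 0.227, edgeR adjusted p = 9.76e-05). In muscle 0 of the 12 passed with age by edgeR, beside 1.14% higher and 0.88% lower among all tested genes. There Il18r1 had 139 and 159 CPM in aged muscle against 88.9 and 115 CPM in young muscle. The 2 age effects of Il18r1 differed by -1.50 ± 0.302 (edgeR adjusted p = 0.0131), a call lost without either young spleen library or without aged spleen replicate 2. The other genes that rose with age in spleen were Rora (0.92), Batf and Maf. The Rora call held in 11 of 14 alternatives and was lost without young spleen replicate 1 or without either aged spleen library. Batf and Maf, transcription factors of effector Tregs, rose with age in spleen by 1.04 and 0.76, and their calls were lost without any 1 of the 4 spleen libraries.

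In the VEGF and PDGF family, 11 of 17 genes were tested and 1 call was made in the 5 comparisons. That call was for tissue in aged mice, where 9.57% of all tested genes were called higher and 9.27% lower. Nrp1, a VEGF co-receptor and a marker of thymus-derived Tregs, was lower in aged muscle than in aged spleen (-0.61 ± 0.148, edgeR adjusted p = 0.0104), a call lost without either aged spleen library. Without young muscle replicate 1 the family's calls for tissue in aged mice were 3 higher and 2 lower, and without young muscle replicate 2 they were 2 and 2. In the oncostatin M and interleukin-6 family 9 of 12 were tested. Il6ra, the interleukin-6 receptor chain, fell with age in spleen, with 92.4 and 112 CPM in aged spleen against 354 and 321 CPM in young spleen (-1.73 ± 0.171, edgeR adjusted p = 3.58e-05). In muscle it had 70.8 and 70.6 CPM in aged mice against 77.2 and 71.9 CPM in young mice. The age effects of Il6ra differed by 1.65 ± 0.247 (edgeR adjusted p = 0.00149), which held in all 13 alternatives. Il6st, the shared receptor chain of Osm and interleukin-6, was lower in aged muscle than in aged spleen by -0.80 (edgeR adjusted p = 0.0246) and lost that call in 5 of 14 alternatives.

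In the insulin-like and hepatocyte growth factor axis, 16 of 22 genes were tested. Igf1r, the receptor of Igf1, had 51.8 and 47.4 CPM in aged muscle against 283 and 274 CPM in aged spleen (-2.49 ± 0.173, edgeR adjusted p = 3.03e-07). In young mice it had 58.7 and 61.9 CPM in muscle against 187 and 197 CPM in spleen (-1.67 ± 0.171, edgeR adjusted p = 6.56e-06). Igf2r, which clears Igf2, was lower in muscle by -1.22 in aged and -2.20 in young mice. The calls of Igf1r and Igf2r between tissues held in all 14 alternatives. In young mice 5 genes were higher in muscle and 3 lower, with 0 higher without young spleen replicate 1. In aged mice 0 were higher and 5 lower, with 2 lower without either aged spleen library and 3 without either aged muscle library. Among all tested genes, 11.4% were called higher in muscle and 10.9% lower in young mice, and 9.57% and 9.27% in aged mice. Met, the receptor of Hgf, was higher in young muscle than in young spleen (2.34 ± 0.792, edgeR adjusted p = 0.0465), with 8.05 and 25.0 CPM against 3.74 and 2.71 CPM. That call was lost in 6 of 14 alternatives. With age in spleen, Igfbp4 fell (-2.06, edgeR adjusted p = 0.0134), Igf2r fell (-1.27, 0.00214) and St14, a protease that activates Hgf, rose (1.18, 0.0302), each with calls lost when single spleen libraries were left out.

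For the opioid axis 8 of 12 genes were tested, and 0 were called with age by edgeR in either tissue. Among all tested genes, 1.14% were called higher and 0.88% lower with age in muscle, and 2.08% and 2.17% in spleen. Pcsk2 and Cpe encode enzymes that process neuropeptide precursors. Pcsk2 was higher in muscle by 1.07 ± 0.196 in aged mice (edgeR adjusted p = 0.00178) and 0.80 ± 0.196 in young mice (edgeR adjusted p = 0.00882). It had 141 and 184 CPM in aged muscle against 70.4 and 84.5 CPM in aged spleen. The Pcsk2 calls held in 13 of 14 alternatives in aged mice and in 11 of 14 in young mice. The young call was lost without either young spleen library or without young muscle replicate 2. Cpe was higher in young muscle than in young spleen (1.89 ± 0.564, edgeR adjusted p = 0.0266), a call lost in 4 of 14 alternatives, among them without young muscle replicate 1 (1.42).

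Among 14 tested genes of other secreted repair factors, 8 were higher in young muscle than in young spleen and 5 in aged muscle than in aged spleen, with 0 lower at either age, beside 11.4% of all tested genes called higher in young and 9.57% in aged mice. Among the 8, the call of Grn was lost without young muscle replicate 1, at 0.53 against 1.70 with it. Metrnl, a cytokine of muscle and fat, had 65.2 and 55.8 CPM in aged muscle against 10.5 and 3.39 CPM in aged spleen (3.06 ± 0.45, edgeR adjusted p = 0.000658). Its log2 fold change in young mice was 4.84 ± 0.523 (edgeR adjusted p = 3.72e-05). Anxa1, which encodes the pro-resolving protein annexin A1, was higher in muscle by 4.28 in aged mice (edgeR adjusted p = 0.00019) and 4.89 in young mice (edgeR adjusted p = 9.18e-05). Both genes held their calls in all 14 alternatives, although myeloid cells also express Anxa1 and young muscle replicate 1 was its highest library at 76.0 CPM.

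Il10 and Fgl2, suppressive products of Tregs, gave age calls in this list. Il10 had 149 and 143 CPM in aged spleen against 34.1 and 41.5 CPM in young spleen (1.94 ± 0.19, edgeR adjusted p = 3.27e-05). In muscle it had 188 and 168 CPM in aged mice against 326 and 266 CPM in young mice (-0.74 ± 0.172, edgeR adjusted p = 0.0399), and this call was lost in 7 of 14 alternatives, among them without young muscle replicate 1 (-0.58). Il10 was the 1 gene of the list called with age in muscle, and 5 were lower without young muscle replicate 2. The 2 age effects differed by -2.68 ± 0.256 (edgeR adjusted p = 3.17e-05), which held in all 13 alternatives. Fgl2 rose with age in spleen (1.44 ± 0.23, edgeR adjusted p = 0.00187), a call lost without young spleen replicate 1.

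The genes closest to Areg across the 8 libraries were found by the root mean square difference of log2 CPM, each gene centred on its own mean, among 7794 well-expressed genes. They were Il18rap (0.422), Kirrel3 (0.47), Ptprg (0.473), Ramp3 (0.482) and Slit3 (0.531), beside a median of 1.64 over all candidates. Il18rap encodes an interleukin-18 receptor chain. It had 90.1 and 78.7 CPM in aged muscle, 37.0 and 50.4 CPM in young muscle, 15.5 and 25.8 CPM in aged spleen and 4.21 and 5.81 CPM in young spleen, the same order of groups as Areg. A shared order follows largely from choosing these genes by their closeness to Areg over the same 8 libraries. Ramp3 encodes a subunit of adrenomedullin receptors. Kirrel3, Ptprg and Slit3 span 551, 689 and 587 kb, against 8.83 kb for Areg. When each library was left out in turn, 2 to 5 of these 5 genes were again among the closest. Among the members, Egfr was closest to Areg (1.00), followed by Hgf (1.03) and Pdgfb (1.14), while Penk was at 1.58 and Vegfb at 1.95.

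**Figure D5:**
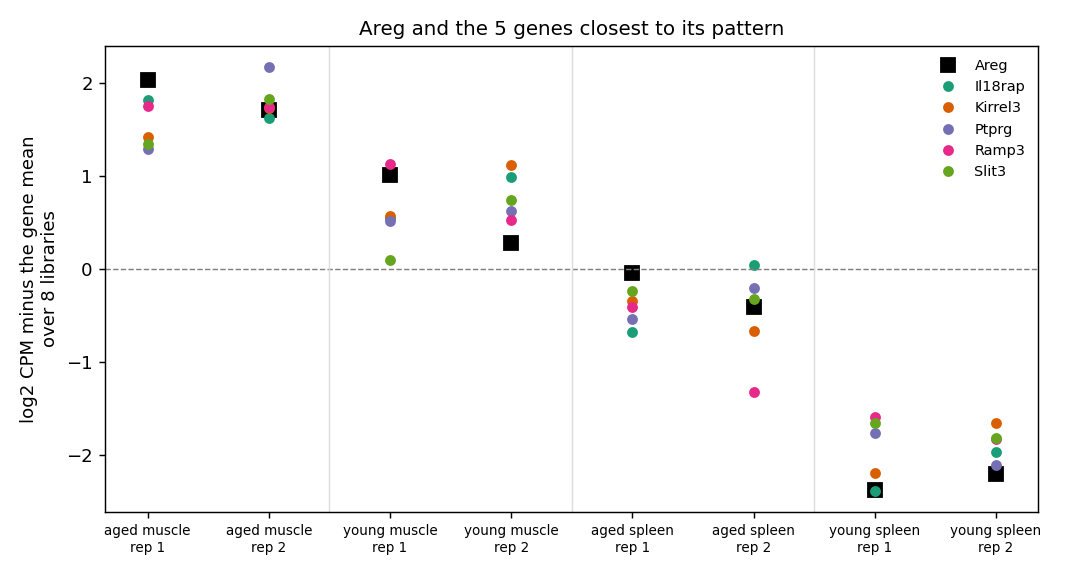
Log2 CPM minus each gene's mean over the 8 libraries, for Areg (squares) and the 5 genes closest to its pattern (circles), by library. All 6 genes are above their means in the 4 muscle libraries and, other than Il18rap in aged spleen replicate 2, below them in the 4 spleen libraries.

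The genes closest to Penk were BC065397 (0.393), Snx19 (0.413), Nudt22 (0.428), Itgb8 (0.451) and Pex16 (0.469), beside a median of 0.874. Itgb8 encodes an integrin chain with which Tregs activate TGF-beta. It averaged 80.5 CPM in aged muscle, 48.6 CPM in young muscle, 154 CPM in aged spleen and 75.9 CPM in young spleen. This set was less steady than that of Areg, as 1 to 4 of the 5 genes were again among the closest when a library was left out.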

How the data were processed

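The authors deposited 1 table of raw read counts per gene, not normalized. Per the submitters' processing notes, HTSeq, SAMtools 0.1.19, Picard, TopHat and TopHat2 were used with build mm10. Neither the gene annotation nor the strand option is given in the sources used here. No molecular identifiers are described, so counts are reads after amplification. The exact Poisson intervals of counts cover counting error only. Intervals of fold changes also include the spread between duplicates as fitted by edgeR. Groups came from the sample labels. Differential expression used edgeR 4.0.16 in R 4.3.3 on the deposited counts: filterByExpr by group, TMM scaling, and 1 robust quasi-likelihood fit with a coefficient per group over all 8 libraries (4 residual degrees of freedom, biological coefficient of variation 0.288). Tests were two-sided with Benjamini-Hochberg adjustment over 14772 genes at 0.05. Standard errors are the fold change over the root of its F statistic. CPM were TMM-scaled, and logged CPM used a prior count of 2. A count of 3, the limit that a count of 0 allows, equals 0.736 to 1.5 CPM per library. Replicates differed beyond sampling noise (chi-square per gene 3.84 to 8.65). Genes most like Areg or Penk were sought above a mean of 4 on the log2 CPM scale, without names of the forms Gm or AC or RP plus digits, Rik or a dot, which leaves cDNA names such as BC065397. All members are named, and of the related lists only some of the genes that passed. The members and lists were chosen with earlier results of these data known. Positions are from GENCODE M21 on GRCm38, counted from 1. Alternatives were DESeq2 1.42.0, its size factors in edgeR, library size alone, no filter, the 2 groups compared alone, a replicate block, and leaving out each library with the tested genes held. The pipeline was tested on simulated counts.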

Additional observations from a re-analysis of the deposited data

How the results depend on the processing

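Over 50 results (10 members in 5 comparisons), 640 of 689 alternative values kept their direction and side of the threshold, 2 lost the threshold, 18 gained it and 29 changed sign, the last all among values that were not called. The age and tissue calls of Areg held in every alternative except age in muscle, which the 2 groups alone (1.19) and leaving out aged muscle replicate 1 ended. Leaving out 1 library gave Areg 0.87 to 1.61 for age in muscle and -1.24 to -0.50 for the difference of age effects, which passed only without young muscle replicate 2 (edgeR adjusted p = 0.0255). Members called were 2 for age in spleen with DESeq2, 2 with no filter and 3 with the 2 groups alone, 0 for age in muscle with the 2 groups alone, 2 for tissue in young mice with no filter, and 2 for tissue in aged mice with no filter or the 2 groups alone. Leaving out 1 library gave 0 to 2 for age in muscle, 1 to 2 for age in spleen, 0 to 1 for the difference, 1 to 3 for tissue in young mice and 1 to 2 for tissue in aged mice. The cause was not tested.

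With the replicate block, Areg for age in muscle was 1.21 (edgeR adjusted p = 0.00104), no member's call changed, and the difference of age effects of Egfr turned to -0.45. Deviations of equal replicate numbers correlated between groups at -0.0652 to 0.256, the highest for aged with young muscle, and the labels do not say that a number marks a shared animal. Near-zero tissue values changed sign with scaling: Penk in young mice was 0.0066 with DESeq2, 0.0099 with its size factors and 0.091 with library size, and Osm in aged mice was 0.050, 0.049 and 0.059. Leaving out 1 library turned the sign of these age values: in muscle Penk (-0.18 to 1.58), Vegfb (-1.64 to 0.33), Pdgfb (-0.74 to 0.78), Hgf (-0.0042 to 0.88) and Egfr (-0.40 to 1.63), in spleen Egfr (-0.0045 to 3.06), and for the difference Hbegf (-1.42 to 0.26), Penk (-1.73 to 0.012) and Egfr (-2.12 to 0.94). It also turned the tissue values of Penk (-0.30 to 0.29), Vegfb (-1.46 to 0.52) and Igf1 (-0.10 to 0.22) in young mice and of Vegfa (-0.41 to 1.85), Pdgfb (-1.33 to 0.17) and Osm (-0.22 to 0.20) in aged mice. DESeq2 gave no adjusted p for Pdgfb for age in muscle.

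Over all genes, calls ranged from 33 to 553 higher and 17 to 425 lower for age in muscle, 74 to 928 and 60 to 1002 for age in spleen, 71 to 299 and 66 to 371 for the difference, 660 to 2100 and 784 to 1787 for tissue in young mice, and 426 to 2079 and 444 to 1873 for tissue in aged mice, so the percentages beside the members' counts move with the fit. With library size alone the median of all genes was 0.15 for age in muscle, 0.21 for age in spleen and 0.18 for tissue in young mice, against 0.03, 0.05 and 0.07 with TMM. The leave-outs of the related lists and the marker sums without genes of T cells were chosen after seeing the data. Depth limits Vegfa, Pdgfb, Hgf and Egfr, whose mean counts were 13.8 to 18.9.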
